A study of Gallus gallus with 8 samples.

Results

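Cytosolic ribosomal protein genes were followed in chick engineered muscle tissues, as the 66 genes of the deposited count table whose symbol is RPL, RPLP, or RPS, then a number, then at most A, X, Y, or L with a number. The kinases of ribosomal protein S6 were left out. These 66 genes, 41 of the large (60S) subunit and 25 of the small (40S) subunit, were chosen by name from 17775 genes. The naming rule uses no measured value, but the set was chosen with earlier results of these data known. All 66 passed the filter on low counts among 14311 genes tested, and the lowest count of any of them in any tissue was 927. They lay on 27 chromosomes of the chicken assembly GRCg6a, with 4 of them on chromosome Z. *RPL10*, *RPL13A*, *RPL18*, *RPL28*, *RPS9*, *RPS18*, *RPS19*, and *RPS27*, among others, are not analysed here.

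RNA was sequenced from 5 tissues at week 1 of differentiation (day 7, tissues 1-1 to 1-5) and 3 tissues at week 3 (day 21, tissues 3-1 to 3-3). Every tissue was grown from primary myoblasts of chick embryo thighs (embryonic day 10) on gelatin hydrogels crosslinked with transglutaminase, differentiated in medium with less serum, and held no motor neurons. The sources used here give no genetic modification, no strain, and not the number of myoblast harvests behind the tissues, so harvest and week cannot be told apart and p-values measure the spread between these tissues. The total estimated count was 14368710 to 16545497 per tissue at week 1 and 15447904 to 18902561 at week 3. RNA came from whole tissues, so fewer cells of a type and less RNA per cell cannot be told apart. Levels are given as FPKM-UQ, the authors' normalized signal, which here is a count with 1 added, over a factor that is the same for all genes of a tissue. Gene length does not enter this signal, so levels were compared mainly between tissues. Ratios between genes or subunits, and rankings of genes by level, also depend on transcript length. Of 8 skeletal muscle markers listed, 5 were found (*MYOG*, *DES*, *TNNT3*, *TNNC2*, and *MYH1C*) and none was at 0 in any tissue, and *CKM*, *RYR1*, and *TTN* were not matched.

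A ribosome joins a large subunit, which forms peptide bonds and passes the growing chain through an exit tunnel, to a small subunit, which reads the messenger RNA. Ribosomal proteins fold onto ribosomal RNA in the nucleolus and most have a single copy in each ribosome. Their messenger RNAs begin with a pyrimidine-rich tract through which the TOR kinase controls their translation in mammals, and ribosome production accompanies muscle growth.

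The ribosomal protein genes took a larger share of all counts at week 3 than at week 1. Their summed counts were 2.62%, 3.03%, 3.25%, 3.33%, and 3.28% of the total in tissues 1-1 to 1-5, and 3.46%, 3.62%, and 3.67% in tissues 3-1 to 3-3. Every week 3 tissue lay above every week 1 tissue, and tissue 1-1 was the lowest. The mean share of 3.10% ± 0.290 (SD, n = 5) in week 1 tissues became 3.58% ± 0.109 (SD, n = 3) by week 3, a difference of 0.480 percentage points that was 0.360 without tissue 1-1. No test was made on the summed share. On the FPKM-UQ scale, where each tissue has its own factor, the summed signal was 25263 to 34601 in week 1 tissues and 33728 to 35997 in week 3 tissues. These ranges overlapped, since tissue 1-4 lay above tissue 3-1. The balance between the subunits overlapped between weeks. The summed count of the large subunit was 1.40 ± 0.0251 (SD, n = 5) times that of the small subunit in week 1 tissues, against 1.40 ± 0.00890 (SD, n = 3) times in week 3 tissues.

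**Figure D1:**
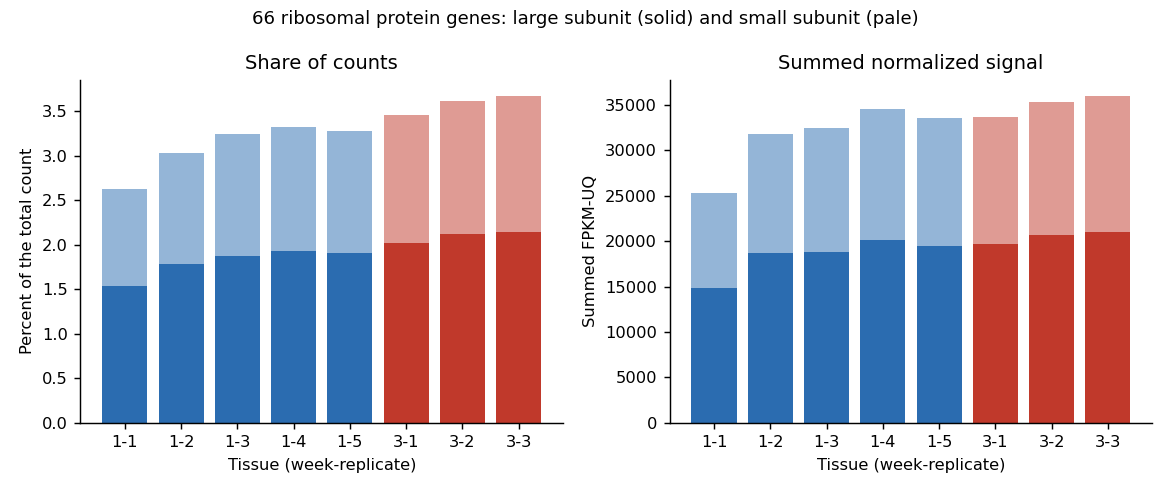
Summed counts of the 66 ribosomal protein genes as a percentage of the total count (left) and their summed FPKM-UQ (right) in each tissue, with the large subunit solid and the small subunit pale, week 1 in blue and week 3 in red. The share of counts was 2.62% to 3.33% at week 1 and 3.46% to 3.67% at week 3, and the summed FPKM-UQ of the weeks overlapped.

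Genes of the mitochondrial genome held 5.52% to 6.39% of all counts in week 1 tissues and 4.65% to 4.82% in week 3 tissues. With these genes left out of the total, the difference in the ribosomal protein share was 0.461 percentage points. Leaving the 10 other genes with the highest counts out of the total gave 0.436.

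Gene by gene, the change was small and mostly upward. The log2 fold change from week 1 to week 3 was above 0 for 62 of the 66 genes, against 49.1% of all genes tested. Its median was 0.13, with quartiles of 0.07 and 0.19, against a median of -0.01 over all genes tested. The exceptions with a log2 fold change below 0 were *RPL9*, *RPL23A*, *RPL13*, and *RPS12*. Of the 66, 5 (7.58%) rose in edgeR's quasi-likelihood test at a p below 0.05 after Benjamini-Hochberg adjustment over all genes tested (the edgeR adjusted p given hereafter), where 11.5% of all genes rose. None of the 66 fell, against 12.0% of all genes, and none fell at an unadjusted p below 0.05, in DESeq2, or in limma. Both shares of calls lay below the background. At the thresholds of the study, 1.5-fold change and an unadjusted p of 0.05, none of the 66 rose and none fell in edgeR, DESeq2, or limma, where 7.22% of all genes rose and 7.39% fell in edgeR. At an unadjusted p below 0.05 with no limit on fold change, 17 of the 66 (25.8%) were higher and 0 lower, where 17.6% of all genes were higher and 18.3% lower. The 5 genes that rose were all of the large subunit, whose median log2 fold change was 0.13, with 10 genes (24.4%) higher and 0 lower at an unadjusted p below 0.05. The median of the small subunit was 0.15, with 0 genes called and with 7 (28.0%) higher and 0 lower at that unadjusted p. A difference between the subunits was not tested.

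**Figure D2:**
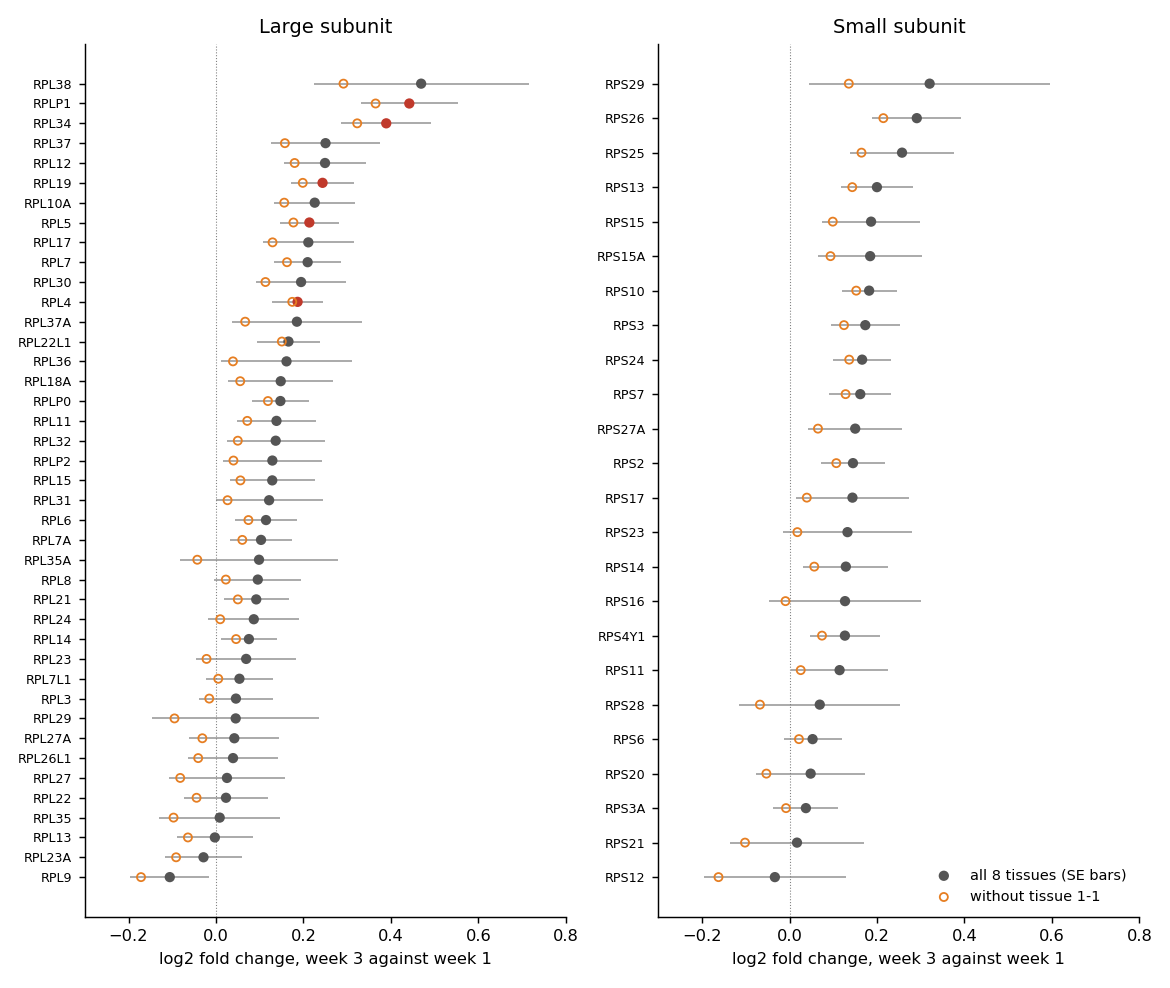
Log2 fold change, week 3 against week 1, of the ribosomal protein genes, of which 1 is not shown, in edgeR's fit over all 8 tissues (filled points, bars of 1 SE, red where the adjusted p was below 0.05) and without tissue 1-1 (open orange points). Over all 66 genes, 62 values lay above 0 with all tissues and 48 without tissue 1-1. Of all genes tested, 49.1% lay above 0 with all tissues. The fit without tissue 1-1 tested 14237 genes, and 7058 of those tested in both fits lay above 0.

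The call of each of the 5 genes called with every tissue depended on single tissues. Their log2 fold changes stayed above 0 with any 1 tissue left out, with 0.17 for *RPL4* as the lowest value. Without tissue 3-2 or without tissue 3-3, 0 ribosomal protein genes were called. Without tissue 3-1 or without tissue 1-3, 2 were called (*RPL34* and *RPLP1*), and without tissue 1-2 or without tissue 1-5, 3 were called. Without tissue 1-4, 5 were called, of which 4 were among the 5 called with every tissue. Without tissue 1-1, 17 rose (25.8% of the 66), where 19.1% of all genes rose, and 2 fell (3.03%), where 19.5% of all genes fell. Those 17 held all 5 genes called with every tissue. The median log2 fold change of the 66 was then 0.06, less than with every tissue, and 48 of the 66 were above 0. The fit without tissue 1-1 tested 14237 genes. Of those also tested with every tissue, 7058 were above 0, and their median was -0.003. When counts were scaled by library totals alone, 20 ribosomal protein genes were called and the median log2 fold change was 0.21. Shares over all genes are given here only for the fits with every tissue and without tissue 1-1. The other counts therefore cannot be read as particular to these genes.

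Tissue 1-1 had the lowest FPKM-UQ of all 8 tissues for every one of the 66 genes. Among the week 1 tissues alone it was thus the lowest for all 66, against 33.6% of all genes. Its log2 distance from the mean of the other week 1 tissues ran from -1.29 for *RPS29* to -0.08 for *RPL4*, with a median of -0.42. Among the other week 1 tissues, 1-4 was the highest of the week for 43 genes, 1-5 for 22, and 1-3 for 1. At week 3, tissue 3-1 lay below the mean of the other week 3 tissues for 63 of 66 genes. Within each week the genes therefore mostly lay low together in the same tissue. Over the 8 tissues the median Pearson correlation between pairs of these genes was 0.887, and 2143 of 2145 pairs had a positive one. Without tissue 1-1 the median was 0.544 with 1813 pairs positive. These correlations pool both weeks, so they include the difference between weeks. They also share the tissues' libraries and scaling factors, have no values for other gene pairs beside them, and are given as a description.

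**Figure D3:**
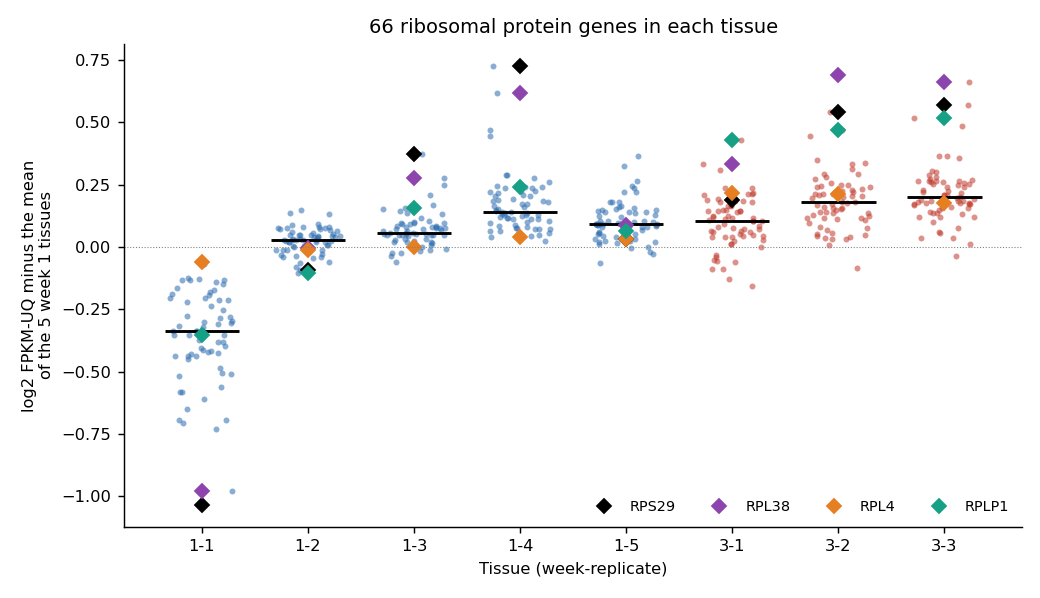
Log2 FPKM-UQ of each of the 66 ribosomal protein genes in each tissue minus that gene's mean over the 5 week 1 tissues, with 1 point per gene, a bar at the median, and 4 genes marked by diamonds. All 66 genes were lowest in tissue 1-1, where *RPS29* and *RPL38* lay farthest down and *RPL4* nearest to the other tissues.

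Tissue 1-1 also stood apart over the tested genes as a whole, the ribosomal protein genes included. A chi-square comparing the counts of 2 tissues, per degree of freedom, was 36.5 to 45.1 between tissue 1-1 and each other week 1 tissue. Between those other tissues it was 4.72 to 10.1. This measure cannot show whether the distance of tissue 1-1 was particular to ribosomal protein genes. Tissue 1-1 was not low for the whole translation machinery. The summed FPKM-UQ of the translation factors found was 26397 there and 26190 to 27102 over week 1, and that of the ribosome biogenesis genes was 4067, the highest of the week. The summed signal of the mitochondrial ribosomal proteins was lowest there, at 2658 against 3061 to 3252 in the other week 1 tissues. Fibroblast markers were also lowest in tissue 1-1, with a sum over all 6 of 19367 against 27036 to 30293 in the other week 1 tissues and 21297 to 21997 at week 3. The 5 skeletal muscle markers summed to 11091 in tissue 1-1, within the range of week 1 of 10883 to 13873. At week 3 the muscle markers summed to 10761 to 11146, and between the weeks 1 of the 5 rose (*MYH1C*) and 0 fell in edgeR's quasi-likelihood test, with 2 higher and 2 lower at an unadjusted p below 0.05. Between the weeks, 4 of the 6 fibroblast markers fell in the same test, and all 6 without tissue 1-1. Over all genes, 11.5% rose and 12.0% fell with every tissue, and 19.5% fell without tissue 1-1. At an unadjusted p below 0.05 in edgeR, 17.6% of all genes were higher and 18.3% lower with every tissue. With every tissue, 1 of 4 endothelium markers, 2 of 3 macrophage and leukocyte markers, 1 of 2 Schwann and neural markers tested, and the 1 erythroid marker tested (*HBA1*) fell. The summed ranges of the endothelium markers were 35.1 to 41.4 at week 1 and 24.6 to 29.1 at week 3, and those of the macrophage and leukocyte markers were 36.5 to 70.3 and 30.6 to 32.4. The Schwann and neural markers summed to 3.90 to 7.49 and 3.15 to 4.36, with 1 of the 4 at 0 in some tissue, and the erythroid markers found summed to 0.851 to 2.03 and 0.103 to 0.569, with all 3 at 0 in some tissue. The part of these cell types in the ribosomal protein values was not tested.

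Spread within week 1 was wide for ribosomal protein genes. The coefficient of variation of FPKM-UQ over the 5 tissues had a median of 13.1% and ran from 2.76% for *RPL4* to 40.1% for *RPS29*. The 1963 genes with a mean at least as high as the lowest of the 66, these 66 included, had a median of 8.34%. That set has only a lower limit on level and was not otherwise matched to the 66. Without tissue 1-1 the medians were 4.86% for the ribosomal protein genes and 5.22% for the genes as high. At week 3 they were 4.15% and 2.65%, over 3 tissues. The 4 genes with the widest spread at week 1 were *RPS29*, *RPL38*, *RPL29*, and *RPS28*, with 40.1%, 35.1%, 27.7%, and 26.1%. *RPS29*, *RPL38*, and *RPS28* encode some of the smallest proteins of the ribosome. A link between protein size and spread was not tested.

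*RPS29* (chromosome 5, 57737586 to 57738432) encodes a zinc-binding protein of the head of the small subunit. Its FPKM-UQ was 133, 256, 353, 452, and 279 in tissues 1-1 to 1-5 and 311, 398, and 405 in tissues 3-1 to 3-3. Tissue 1-4 was the highest of all and tissue 1-1 the lowest, and the weeks overlapped (log2 fold change 0.32, SE 0.27, edgeR adjusted p = 0.44, and 0.14 without tissue 1-1, SE 0.12, edgeR adjusted p = 0.41). *RPL38* (chromosome 18, 9097963 to 9100481) encodes a large subunit protein that in mouse is needed for the translation of a set of Hox messenger RNAs. Its FPKM-UQ was 60.7, 119, 145, 183, and 127 in tissues 1-1 to 1-5 and 150.5, 193, and 189 in tissues 3-1 to 3-3. Tissue 1-1 lay far below the rest, and tissue 1-4 lay among the week 3 tissues. *RPL38* had the largest log2 fold change of the 66 genes, but its error was also large (log2 fold change 0.47, SE 0.25, edgeR adjusted p = 0.194, and 0.29 without tissue 1-1, SE 0.10, edgeR adjusted p = 0.0245). For *RPL29*, whose product binds heparin in mammals, FPKM-UQ ranged from 93.8 to 212 at week 1 and 148 to 175 at week 3. Its log2 fold change of 0.05 turned to -0.09 without tissue 1-1. *RPS28*, at the messenger RNA exit of the small subunit, ranged from 288 to 636 at week 1 and 457 to 559.8 at week 3, and its log2 fold change of 0.07 likewise turned to -0.07. In both genes the week 3 tissues lay inside the range of week 1.

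The acidic stalk recruits the elongation factors to the large subunit, with *RPLP0* as its base and *RPLP1* and *RPLP2* as its flexible arms. *RPLP1* (chromosome 2, 145698580 to 145699799) rose most of the 5 called genes. Its FPKM-UQ was 488, 579, 695, 736, and 652 in tissues 1-1 to 1-5 and 839, 862, and 892 in tissues 3-1 to 3-3. All week 3 tissues lay above all week 1 tissues, and tissue 1-1 was the lowest. The week 1 mean of 629.9 ± 98.3 (SD, n = 5) became 864 ± 26.5 (SD, n = 3) by week 3, a 1.36-fold rise (log2 fold change 0.44, SE 0.11, edgeR adjusted p = 0.0131). Its edgeR adjusted p was 4.54e-05 without tissue 1-1 and 0.0621 without tissue 3-3, the lowest and highest values when 1 tissue was left out. The anchor *RPLP0* (chromosome 15, 9721482 to 9724692) had FPKM-UQ values of 679, 747, 736, 765, and 789 in tissues 1-1 to 1-5 and 832, 839, and 823 in tissues 3-1 to 3-3. The weeks did not overlap, and the difference missed the threshold (log2 fold change 0.15, SE 0.06, edgeR adjusted p = 0.122). *RPLP2* (chromosome 5, 15988312 to 15993625) had 245, 338, 344, 371, and 356 in tissues 1-1 to 1-5 and 336, 378, and 382 in tissues 3-1 to 3-3. The weeks overlapped, with tissue 3-1 below most of week 1, and the test did not call it (log2 fold change 0.13, SE 0.11, edgeR adjusted p = 0.455). The arms of the stalk thus differed in their values: *RPLP1* per 100 of *RPLP0* was 71.9 to 96.2 in week 1 tissues and 100.8 to 108.3 in week 3 tissues, without overlap, whereas *RPLP2* per 100 of *RPLP0* was 36.1 to 48.4 and 40.4 to 46.4. These ratios also depend on transcript length and were not tested. *RPL12*, next to the stalk, ranged from 264 to 367 at week 1 and 388 to 403 at week 3, again without overlap, and missed the threshold (log2 fold change 0.25, SE 0.09, edgeR adjusted p = 0.0729). Of the 4 stalk genes 1 was called, where 11.5% of all genes rose, and the log2 fold changes ran from 0.13 to 0.44.

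*RPL5* and *RPL11* enter the large subunit together with the 5S ribosomal RNA, and outside the ribosome their products bind MDM2, the inhibitor of p53, in mammals. *RPL5* (chromosome 8, 14447758 to 14455257) had FPKM-UQ values of 750.4, 858, 860.1, 892, and 852 in tissues 1-1 to 1-5 and 972, 1004, and 983 in tissues 3-1 to 3-3. Week 3 lay above week 1 in every tissue (log2 fold change 0.21, SE 0.07, edgeR adjusted p = 0.0388). Leaving out 1 of tissues 1-2, 1-3, 1-5, 3-1, 3-2, or 3-3 lost this call. *RPL11* (chromosome 23, 5714104 to 5718469) had 321, 406, 419, 438, and 412 in tissues 1-1 to 1-5 and 438, 440.4, and 453 in tissues 3-1 to 3-3. Its weeks overlapped by tissues 1-4 and 3-1 and it was not called (log2 fold change 0.14, SE 0.09, edgeR adjusted p = 0.293).

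Proteins of the exit tunnel and its rim line the path of the new peptide. *RPL4* (chromosome 10, 18942659 to 18948764), whose loop narrows the tunnel, had FPKM-UQ values of 849, 878, 886, 911, and 904 in tissues 1-1 to 1-5 and 1028, 1025, and 1001 in tissues 3-1 to 3-3. It varied least of the 66 genes within week 1, and every week 3 tissue stood above that narrow range (log2 fold change 0.19, SE 0.06, edgeR adjusted p = 0.0366). Of the 8 ways to leave out 1 tissue, only the one without tissue 1-1 kept its adjusted p below 0.05 in the same test. Over these 8 fits its log2 fold change ran from 0.17 to 0.20. *RPL19* (chromosome 27, 6926456 to 6929004), at the rim of the tunnel, had 565, 668, 672, 689, and 669 in tissues 1-1 to 1-5 and 755, 808, and 778 in tissues 3-1 to 3-3. Week 3 lay above week 1 throughout, and week 1 apart from tissue 1-1 was tight (log2 fold change 0.24, SE 0.07, edgeR adjusted p = 0.031). Of the 8 genes of this region 2 were called and 3 did not overlap between weeks, the third being *RPL17*. Over all genes, 11.5% rose and 15.6% were higher at week 3 without overlap. The log2 fold changes of the region ran from -0.03 (*RPL23A*) to 0.24 (*RPL19*).

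*RPL34* (chromosome 4, 37708385 to 37711695), a large subunit protein, completed the called genes. Its FPKM-UQ was 262, 314, 347, 386, and 316 in tissues 1-1 to 1-5 and 399, 438, and 451 in tissues 3-1 to 3-3. Tissue 1-4 came close to tissue 3-1 without reaching it (log2 fold change 0.39, SE 0.10, edgeR adjusted p = 0.0176). The weeks did not overlap for any of the 5 called genes, and each had a p of 0.0357 in an exact two-sided permutation test of FPKM-UQ over the 56 splits of 8 tissues, the smallest p that 5 against 3 tissues can give in this test. Any gene without overlap gets this p, as did *RPLP0* and *RPS2*, which were not called. It therefore adds nothing to the lack of overlap.

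**Figure D4:**
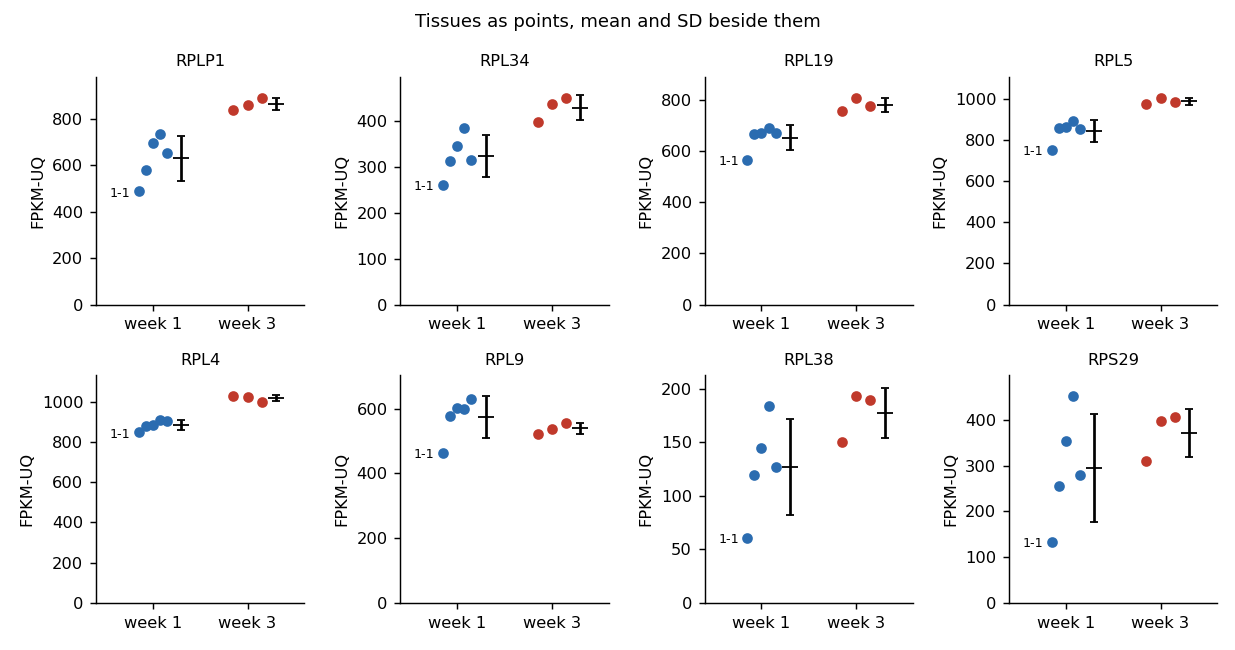
FPKM-UQ of the 5 called genes, *RPLP1*, *RPL34*, *RPL19*, *RPL5*, and *RPL4*, and of *RPL9*, *RPL38*, and *RPS29* in each tissue (points), with the mean and SD of each week beside them (n = 5 and n = 3) and tissue 1-1 labelled. The weeks were apart in the 5 called genes and overlapped in the other genes shown, and tissue 1-1 was the lowest point in all 8 panels.

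Around the peptidyl transferase center no gene was called. *RPL3* (chromosome 1, 50691560 to 50697389), which reaches into that center, had FPKM-UQ values of 548, 698, 684, 694, and 712 in tissues 1-1 to 1-5 and 692, 702, and 692 in tissues 3-1 to 3-3. Week 3 fell among tissues 1-2 to 1-5 (log2 fold change 0.05, SE 0.08, edgeR adjusted p = 0.745), and without tissue 1-1 the log2 fold change was -0.02. *RPL8*, near the same center, ranged from 597 to 855 at week 1 and 788 to 855 at week 3. The weeks overlapped in both genes.

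The genes lowest on the scale of change were not called either. *RPL9* (chromosome 4, 69289315 to 69296301), near the base of the stalk, had FPKM-UQ values of 463, 578, 601, 599.5, and 628 in tissues 1-1 to 1-5 and 522, 538, and 557 in tissues 3-1 to 3-3. All week 3 tissues lay below tissues 1-2 to 1-5 but above tissue 1-1 (log2 fold change -0.11, SE 0.09, edgeR adjusted p = 0.439). Without tissue 1-1 the weeks no longer overlapped and *RPL9* fell (-0.17 without tissue 1-1, SE 0.05, edgeR adjusted p = 0.00736). *RPS12* (chromosome 3, 56858322 to 56862422), in the beak of the small subunit, was the other gene that fell without that tissue. It had 457, 762, 770.0, 790.4, and 899 in tissues 1-1 to 1-5 and 675, 733, and 769 in tissues 3-1 to 3-3, with tissue 1-1 far below and tissue 1-5 far above the rest (log2 fold change -0.03, SE 0.16, edgeR adjusted p = 0.908, and -0.16 without tissue 1-1, SE 0.06, edgeR adjusted p = 0.033). *RPL9* and *RPS12* were the 2 ribosomal protein genes called lower without tissue 1-1.

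At the messenger RNA entry of the small subunit, where *RPS2* and *RPS3* encode proteins that line the entry channel, the weeks did not overlap for either gene. *RPS2* (chromosome 14, 6539294 to 6541962) had FPKM-UQ values of 951, 1024, 1124, 1126, and 1140.1 in tissues 1-1 to 1-5 and 1185, 1193, and 1216 in tissues 3-1 to 3-3. Every week 3 tissue lay above week 1, but *RPS2* was not called (log2 fold change 0.15, SE 0.07, edgeR adjusted p = 0.174). *RPS3* (chromosome 1, 196638370 to 196645722) had 519, 588, 619, 662, and 645 in tissues 1-1 to 1-5 and 677, 706, and 689 in tissues 3-1 to 3-3. The highest week 1 tissue, 1-4, was close below tissue 3-1 (log2 fold change 0.17, SE 0.08, edgeR adjusted p = 0.137). At the exit side, *RPS26* ranged from 341 to 496 at week 1 and 512 to 561 at week 3 without overlap, whereas *RPS14* and *RPS28* overlapped, and 0 of these 3 genes were called. In the decoding region, where *RPS15* and *RPS23* were counted, both overlapped between weeks and neither was called. Of 8 genes of the small subunit head, 1 did not overlap, *RPS10*, and the log2 fold changes ran from -0.03 (*RPS12*) to 0.32 (*RPS29*). Over all genes, 15.6% were higher at week 3 without overlap and 11.5% rose.

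*RPS6* (chromosome Z, 33736390 to 33740881), which encodes the protein that S6 kinase phosphorylates downstream of TOR, had FPKM-UQ values of 848, 952, 937, 952, and 994 in tissues 1-1 to 1-5 and 964, 964, and 1016 in tissues 3-1 to 3-3. Apart from the low tissue 1-1, the tissues of both weeks were mixed (log2 fold change 0.05, SE 0.07, edgeR adjusted p = 0.616). *RPS3A* (chromosome 4, 33235392 to 33239655) had 1022, 1193, 1185, 1253, and 1256 in tissues 1-1 to 1-5 and 1232, 1217, and 1225 in tissues 3-1 to 3-3. Its week 3 tissues lay inside the week 1 range (log2 fold change 0.04, SE 0.07, edgeR adjusted p = 0.767). *RPS27A* (chromosome 3, 74821 to 76717), made as a fusion with ubiquitin, had 332, 452, 473, 499, and 451 in tissues 1-1 to 1-5 and 483, 495, and 505 in tissues 3-1 to 3-3. Its weeks overlapped through tissue 1-4 (log2 fold change 0.15, SE 0.11, edgeR adjusted p = 0.35).

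Over the whole set, 20 of 66 genes (30.3%) had every week 3 FPKM-UQ value above every week 1 value, where 15.6% of the 15394 genes with FPKM-UQ values did. None of the 66 had every week 3 value below every week 1 value, against 13.0% of all genes. Tissue 1-1 was the lowest of all 8 tissues for each of the 66, so none could. Among the 20 genes were *RPL4*, *RPL5*, *RPL7*, *RPL7A*, *RPL10A*, *RPL12*, *RPL17*, *RPL19*, *RPL30*, *RPL34*, *RPLP0*, and *RPLP1* of the large subunit and *RPS2*, *RPS3*, *RPS7*, *RPS10*, *RPS13*, *RPS24*, and *RPS26* of the small subunit. The share of genes higher without overlap thus lay above the background. The share lower without overlap was fixed at 0 by tissue 1-1 and cannot be set against the background. With every tissue, the share of calls at an edgeR adjusted p below 0.05 lay below the background in both directions. Without tissue 1-1, 25.8% of the 66 rose, against 19.1% of all genes, and 3.03% fell, against 19.5%.

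Several of the 66 genes are close copies of another gene, and 27 of the 66 had counts that were not whole numbers in at least 1 tissue, so reads shared between copies may have been divided by the counting. *RPL22L1* (chromosome 9, 19878895 to 19880941), a paralog of *RPL22*, had FPKM-UQ values of 85.3, 92.0, 87.1, 97.8, and 85.6 in tissues 1-1 to 1-5 and 92.8, 106, and 106 in tissues 3-1 to 3-3, and its weeks overlapped (log2 fold change 0.17, SE 0.07, edgeR adjusted p = 0.116). *RPL22* ranged from 152 to 211 at week 1 and 193 to 198 at week 3, with tissue 1-1 as the low value. *RPL22L1* per 100 of *RPL22* was 40.5 to 56.01 at week 1 and 47.9 to 54.6 at week 3, with the week 1 maximum in tissue 1-1, where *RPL22* lay far below the other tissues and *RPL22L1* just below tissue 1-5. *RPL7L1* (chromosome 4, 54538589 to 54542358), a relative of *RPL7* whose yeast counterpart helps to assemble the large subunit, ranged from 87.3 to 111 at week 1 and 104 to 111 at week 3, with overlap. *RPL7* (chromosome 2, 117723223 to 117730490) ranged from 489 to 618 at week 1 and 641 to 682 at week 3 without overlap and missed the threshold (log2 fold change 0.21, SE 0.08, edgeR adjusted p = 0.0685). *RPL7L1* per 100 of *RPL7* was 17.0 to 19.0 at week 1 and 15.2 to 16.6 at week 3, so this ratio was lower in every week 3 tissue. It was not tested. *RPL26L1* (chromosome 13, 9856065 to 9860392), which RefSeq lists in chicken with the synonym RPL26, ranged from 320.2 to 459 at week 1 and 421 to 450.0 at week 3, with tissue 1-1 as the low value (log2 fold change 0.04, SE 0.10, edgeR adjusted p = 0.826). *RPS4Y1* (chromosome 4, 1889130 to 1893557), listed with the synonym RPS4X and not on a sex chromosome, ranged from 605 to 784 at week 1 and 772 to 823 at week 3 with overlap (log2 fold change 0.13, SE 0.08, edgeR adjusted p = 0.287).

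Genes named with a bare L fell outside the naming rule. *RPL3L*, the form of *RPL3* used in adult striated muscle of mammals, had FPKM-UQ values of 38.8, 69.4, 57.1, 54.7, and 63.2 in tissues 1-1 to 1-5 and 68.1, 69.3, and 59.8 in tissues 3-1 to 3-3. Tissue 1-1 was again the lowest and tissue 1-2 the highest, so the weeks overlapped (log2 fold change 0.20, SE 0.15, edgeR adjusted p = 0.351). *RPL3L* per 100 of *RPL3* was 7.07 to 9.93 at week 1 and 8.63 to 9.87 at week 3. *RPS27L*, a p53 target in mammals, ranged from 21.6 to 33.4 at week 1 and 34.2 to 40.5 at week 3 without overlap (log2 fold change 0.29, SE 0.13, edgeR adjusted p = 0.125). *RPL36AL* ranged from 184 to 290.2 at week 1 and 248 to 291 at week 3 and *RPL39L*, which RefSeq lists with the synonym RPL39, from 215 to 321 at week 1 and 287 to 326 at week 3, both with overlap, and 0 of these 4 genes were called.

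Of 4 ribosomal components with other names, 1 was called higher, where 11.5% of all genes rose. *RPSAP58* (chromosome 2, 44295275 to 44300138), which RefSeq lists with the synonym RPSA for the laminin-binding protein of the small subunit, had FPKM-UQ values of 976, 1021, 1060.4, 1074, and 1082 in tissues 1-1 to 1-5 and 1191, 1206, and 1214 in tissues 3-1 to 3-3. Every week 3 tissue lay above week 1, and it was called (log2 fold change 0.19, SE 0.06, edgeR adjusted p = 0.0388), though leaving out 1 of tissues 1-2, 1-3, 1-4, 3-1, 3-2, or 3-3 lost the call. *GNB2L1* (chromosome 16, 2525327 to 2529818), the scaffold protein RACK1 on the small subunit head, ranged from 920.1 to 1071 at week 1 and 1124 to 1169 at week 3 without overlap (log2 fold change 0.15, SE 0.07, edgeR adjusted p = 0.121). *FAU*, a ubiquitin-like protein fused to RPS30, ranged from 60.5 to 101 at week 1 and 76.5 to 89.3 at week 3 (log2 fold change -0.07, SE 0.14, edgeR adjusted p = 0.757), and it fell without tissue 1-1 (-0.18 without tissue 1-1, SE 0.07, edgeR adjusted p = 0.0359). Its weeks overlapped.

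Genes that act with the ribosome were counted from lists in the same fit. Of 47 translation factors tested, 11 rose (23.4%, where 11.5% of all genes rose) and 1 fell (2.13%, where 12.0% of all genes fell), with a median log2 fold change of 0.13. The 3 with the smallest p were subunits of the initiation factor eIF3, which brings the small subunit to messenger RNA. *EIF3B* had FPKM-UQ values of 289 to 331 at week 1 and 413 to 420.1 at week 3 (log2 fold change 0.43, SE 0.06, edgeR adjusted p = 0.000628), *EIF3M* rose as well (log2 fold change 0.32, SE 0.06, edgeR adjusted p = 0.00159), and so did *EIF3E* (log2 fold change 0.27, SE 0.06, edgeR adjusted p = 0.00628). The summed signal of the factors found did not overlap between weeks, where that of the ribosomal proteins did, at 26190 to 27102 and 29779 to 30001.

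Of 56 genes of ribosome biogenesis and RNA polymerase I, 19 rose (33.9%, against 11.5% of all genes) and 0 fell (against 12.0%) in edgeR's quasi-likelihood test, with a median log2 fold change of 0.18. At an unadjusted p below 0.05, 28 were higher (50.0%, against 17.6% of all genes) and 2 lower (3.57%, against 18.3%). *UTP4*, of the small subunit processome, ranged from 21.3 to 23.3 at week 1 and 37.7 to 41.3 at week 3 (log2 fold change 0.80, SE 0.07, edgeR adjusted p = 2.32e-05). *GTPBP4*, a GTPase that helps to assemble the large subunit, ranged from 64.4 to 78.5 at week 1 and 106 to 109 at week 3 (log2 fold change 0.55, SE 0.07, edgeR adjusted p = 0.00026), and *PES1*, of the PeBoW complex that matures large subunit RNA, from 57.5 to 65.3 at week 1 and 80.7 to 85.8 at week 3 (log2 fold change 0.39, SE 0.06, edgeR adjusted p = 0.00109). All 3 stood apart between weeks, and tissue 1-1 was not the lowest of week 1 in any of them. Without tissue 1-1, 33 of the 56 rose and 2 fell, where 19.1% and 19.5% of all genes did.

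In the list of 26 genes from the TOR pathway to translation, 2 rose (7.69%, against 11.5% of all genes) and 9 fell (34.6%, against 12.0%) in edgeR's quasi-likelihood test, with a median log2 fold change of -0.14. The list mixes genes that promote TOR signaling or translation with genes that hold them back, so these counts give no direction for the pathway. Of the 9 that fell, the 3 with the smallest p are given here. *SESN2* and *SESN1* encode sestrins, which hold TOR complex activity down, and *EEF2K* encodes the kinase that inhibits elongation factor 2. *SESN2* ranged from 87.3 to 114 at week 1 and 75.7 to 85.1 at week 3 (log2 fold change -0.38, SE 0.09, edgeR adjusted p = 0.00705). *SESN1* ranged from 66.7 to 76.4 at week 1 and 55.7 to 58.7 at week 3 (log2 fold change -0.33, SE 0.07, edgeR adjusted p = 0.00722) and *EEF2K* from 71.8 to 98.1 at week 1 and 63.6 to 64.0 at week 3 (log2 fold change -0.39, SE 0.09, edgeR adjusted p = 0.00998). These genes fell while ribosomal protein genes lay mostly above 0, and a link between them was not tested.

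**Figure D5:**
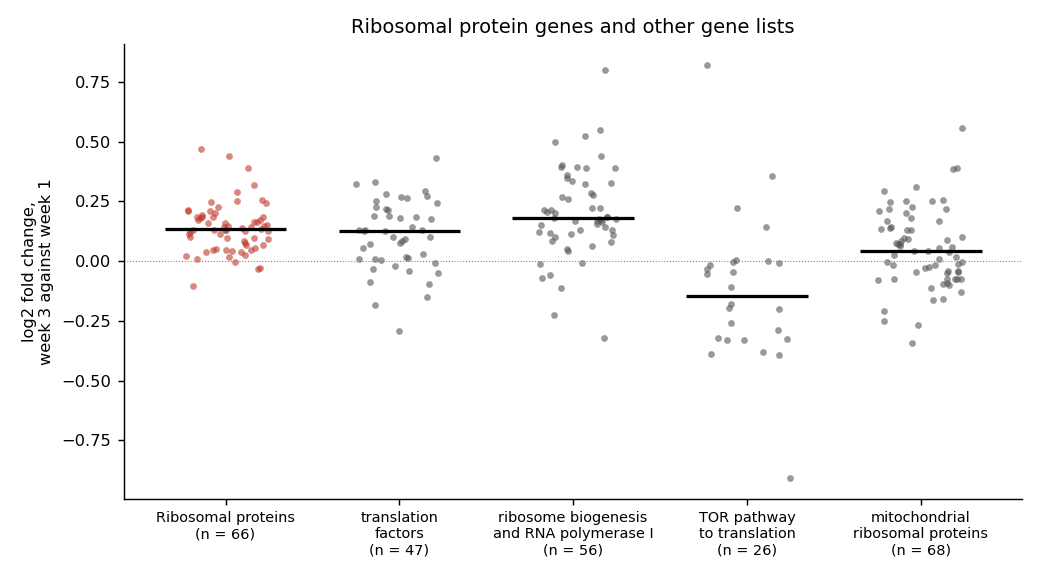
Log2 fold change, week 3 against week 1, of each tested gene of 5 lists in edgeR's fit, with a bar at each list's median. The medians were 0.13 for the 66 ribosomal proteins, 0.13 for 47 translation factors, 0.18 for 56 ribosome biogenesis genes, -0.14 for 26 genes of the TOR pathway, and 0.04 for 68 mitochondrial ribosomal proteins.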

How the data were processed

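RNA of 8 tissues was sequenced by the authors, 5 at week 1 and 3 at week 3. Per the labels, the submitters' processing notes name STAR 2.7.3a, Partek, and the builds galGal6 and GRCg6a. The counting method and the use of strand are not given in the sources used here, so overlapping and antisense genes cannot be told apart. Estimated counts, not normalized, were deposited by the authors for every gene, and 80.98% of them were whole numbers. The authors also deposited FPKM-UQ, a normalized signal, which equalled the count plus 1 divided by 1 factor per tissue to within 0.000787%.

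After rounding, counts were tested with edgeR 4.0.16 (TMM factors, filterByExpr, quasi-likelihood test, R 4.3.3), with Benjamini-Hochberg adjustment over 14311 genes. A gene was called at an adjusted p below 0.05. The standard error was the size of the log2 fold change divided by the square root of the F statistic. Single FPKM-UQ values were set against each other in exact two-sided permutation tests (scipy 1.17.1, Python 3.11.15). Correlations and ratios are descriptions.

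The ribosomal protein genes and all lists were chosen with earlier results of these data known. Named genes were paralogs with X, Y, or L and their partners, every called gene up to 6 in each direction, the 3 genes of each subunit with the highest and the 3 with the lowest mean FPKM-UQ, the 4 with the widest week 1 spread, 10 genes of known roles, and the components and paralogs outside the naming rule. Other ribosomal protein genes given with values, such as *RPL9* and *RPS12*, were picked after their values had been seen. In other lists, at most 3 called genes with the smallest p were named. Names were matched by symbol, then by synonyms of RefSeq (assembly GRCg7b), which placed 166 of 187 listed genes.

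Alternatives were other scaling factors, library totals alone, other filters, DESeq2 1.42.0, limma 3.58.1 on log2(FPKM-UQ + 1) and log2(FPKM-UQ + 0.1), the replicate number as a block, other denominators for the share, and each tissue left out in turn. A few single genes are left out of the text and plots. The edgeR procedure was tested on simulated data.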

Additional observations from a re-analysis of the deposited data

Results flagged for a closer look

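In week 1, tissue 1-1 lay far below the other 4 tissues in the FPKM-UQ of several ribosomal protein genes. The gap from tissue 1-1 to the nearest other tissue, as a share of the whole range of the 5 tissues, was 0.835 for *RPL19*, 0.826 for *RPL3*, 0.781 for *RPL7A*, 0.779 for *RPL26L1*, 0.778 for *GNB2L1*, 0.744 for *RPLP2*, 0.731 for *RPL11*, 0.726 for *RPS21*, 0.716 for *RPL5*, and 0.711 for *RPS27A*. Each exceeded 0.71, Dixon's critical value for 5 samples, which chance exceeds in about 1 in 20 groups. Over all 66 ribosomal protein genes 17 exceeded it, and over all genes with FPKM-UQ values 10.8% did. The genes named here were listed because they exceeded this value. They share the library and scaling factor of tissue 1-1, so they are not independent groups.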

How the results depend on the processing

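The number of ribosomal protein genes called higher, 5 with edgeR's quasi-likelihood test, was 20 with library totals alone, 8 with the replicate number as a block, and 0 to 17 with 1 tissue left out. The number called lower, 0, became 0 to 2 with 1 tissue left out. Past a 1.5-fold change and an unadjusted p of 0.05, where 0 rose, 2 rose with the block and 0 to 1 with 1 tissue left out. DESeq2 called 7 higher and limma 6. Apart from the fit without tissue 1-1, these counts are given without a share over all genes. The same-numbered tissues of the weeks did not vary together (correlations of their deviations over all genes of 0.02, -0.01, and 0.00). So few pairs cannot show whether the numbers pair the tissues, and the sources used here do not say. Of the 8 genes called with the block, 2 (*RPL34* and *RPLP1*) were among the 5 called without it, and *RPL19*, *RPL4*, and *RPL5* were not called (edgeR adjusted p = 0.0766, 0.163, and 0.114). With the block the log2 fold change of *FAU* was 0.0807 against -0.0732. The block left tissues 1-4 and 1-5 without weight in the contrast, since their replicate numbers occur only at week 1. An effect of pairing therefore cannot be told apart from that of leaving these tissues out.

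Leaving out 1 tissue at a time turned the sign of the log2 fold change of 17 of the 66 genes at least once. For the 8 of these picked by the naming rule, it ran from -0.0445 to 0.0629 for *RPL22*, -0.0407 to 0.0745 for *RPL26L1*, -0.0949 to 0.168 for *RPL29*, -0.0154 to 0.0694 for *RPL3*, -0.00929 to 0.193 for *RPS16*, -0.102 to 0.113 for *RPS21*, -0.0677 to 0.185 for *RPS28*, and -0.00808 to 0.0593 for *RPS3A*. In all 8 the lowest value was that of the fit without tissue 1-1. The sign also turned without tissue 3-2 for *RPL29* and *RPS21*, and without tissue 3-3 for *RPS21*. The cause of these changes was not tested. Over all alternatives of the 36 named genes, 622 values kept their direction and side of the threshold, 19 passed it anew, 31 lost it, and 12 changed direction. The median log2 fold change of the ribosomal protein genes stayed above 0 in all settings run. Depth was no limit for these genes, but 3 tissues at week 3 limit the error of every comparison.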

Other observations

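Mitochondrial ribosomal proteins, the nuclear-encoded proteins of the ribosome inside mitochondria, gave 68 genes tested, of which 6 rose (8.82%, against 11.5% of all genes) and 2 fell (2.94%, against 12.0%) in edgeR's quasi-likelihood test, with a median log2 fold change of 0.04 and 39 above 0. At an unadjusted p below 0.05, 13 were higher (19.1%, against 17.6% of all genes) and 2 lower (2.94%, against 18.3%). *MRPS14* ranged from 28.0 to 37.7 at week 1 and 41.2 to 51.5 at week 3 (log2 fold change 0.39, SE 0.11, edgeR adjusted p = 0.0206) and *MRPL28* from 70.5 to 82.8 at week 1 and 85.7 to 97.8 at week 3 (log2 fold change 0.25, SE 0.07, edgeR adjusted p = 0.0222), both without overlap. *MRPL13* fell, with FPKM-UQ of 43.2 to 47.4 at week 1 and 35.7 to 40.6 at week 3 (log2 fold change -0.25, SE 0.07, edgeR adjusted p = 0.0278). The summed signal of the 68 genes overlapped between weeks, at 2658 to 3252 and 3120 to 3339.

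Of the TOR pathway list, the 2 genes that rose were *MYC* and *EIF4EBP3*, named here after their values had been seen. *MYC*, a transcription factor that drives ribosome production, ranged from 26.8 to 33.9 at week 1 and 38.6 to 42.7 at week 3 (log2 fold change 0.36, SE 0.09, edgeR adjusted p = 0.0152). *EIF4EBP3*, a binding protein that holds back the cap-binding factor eIF4E, ranged from 1.44 to 3.55 at week 1 and 4.07 to 5.06 at week 3 (log2 fold change 0.82, SE 0.26, edgeR adjusted p = 0.0383).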
